A study of Mus musculus with 2 samples.

Results

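Collagen genes are the genes of the fibrous proteins of the extracellular matrix. The set comprised the protein-coding genes on chromosomes 1 to 19 whose symbol is Col, a number, the letter a and a number in GENCODE M21 (GRCm38, the assembly called mm10), which gave 42 of 20722 coding genes. The library was an H1t immunoprecipitate of spermatogenic cells isolated from testes of ICR mice aged 6 weeks, made with a rabbit polyclonal antibody. H1t is a linker histone made in male germ cells. The deposited peak list of this library was analysed, while the matching input was not analysed here. There was 1 library and no replicate, so no test was made and no error between animals can be given. A list of peaks holds no expression values, so the germ cell label was not checked against marker genes.

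Collagens share a triple helix built from triplets of residues that each begin with glycine, with proline frequent at the other places. Fibrillar collagens build the fibrils of skin, bone and cartilage. Network collagens build sheets such as the basement membrane, and the FACIT collagens sit on the surface of fibrils. In the testis, collagens belong to the basement membrane and the walls of the seminiferous tubules, made by somatic cells.

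The full list held 76546 peaks with a median width of 700 bp. The authors' score per peak, whose scale is not stated, had a minimum of 50 and a median of 74.04. Of these peaks, 100 were assigned to collagen genes by their midpoint. They comprised 16 within 1 kb of a gene start, 20 in coding exons, 1 in an untranslated exon and 63 in introns. Their scores stayed far below the 3100 reached elsewhere, with a maximum of 299.08, and 25 of the 100 scored 100 or more, against 29.35% of all peaks.

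The 5 promoters below show the base composition at starts with and without a peak. Each is the 250 bases before the start in RefSeq on GRCm38.p6, 5′ to 3′ on the gene's strand, with every CG dinucleotide in capitals. The first 3 had the highest-scoring start peaks among those that covered at least 200 of these bases and touched no annotated exon there. Col11a1 had the most CG dinucleotides in the RefSeq window among such promoters of collagen genes without any peak, and Col3a1 is the gene of the type III fibril chain. That window also takes in 50 bases after the start. Among all collagen genes without any peak, Col4a1 (37), Col6a6 (14) and Col1a2 (13) held more CG there than Col11a1 (9).
Col6a5 (chr9:105960644-105960893, minus strand): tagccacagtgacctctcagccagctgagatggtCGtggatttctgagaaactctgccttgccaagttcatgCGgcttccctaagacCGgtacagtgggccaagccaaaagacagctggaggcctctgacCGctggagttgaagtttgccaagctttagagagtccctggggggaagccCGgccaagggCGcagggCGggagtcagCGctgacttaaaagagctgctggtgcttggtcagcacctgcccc
Col5a1 (chr2:27886175-27886424, plus strand): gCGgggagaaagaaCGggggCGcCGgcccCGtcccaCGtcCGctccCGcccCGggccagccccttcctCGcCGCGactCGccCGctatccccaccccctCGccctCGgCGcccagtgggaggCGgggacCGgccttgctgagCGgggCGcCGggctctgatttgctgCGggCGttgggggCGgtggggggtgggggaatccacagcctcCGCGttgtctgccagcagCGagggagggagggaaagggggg
Col5a3 (chr9:20815068-20815317, minus strand): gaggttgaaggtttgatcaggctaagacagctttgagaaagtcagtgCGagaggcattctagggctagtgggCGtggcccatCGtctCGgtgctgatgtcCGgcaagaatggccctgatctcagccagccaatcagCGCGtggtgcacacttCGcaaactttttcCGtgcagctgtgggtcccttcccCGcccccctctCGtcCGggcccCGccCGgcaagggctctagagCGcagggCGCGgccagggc
Col11a1 (chr3:114030290-114030539, plus strand): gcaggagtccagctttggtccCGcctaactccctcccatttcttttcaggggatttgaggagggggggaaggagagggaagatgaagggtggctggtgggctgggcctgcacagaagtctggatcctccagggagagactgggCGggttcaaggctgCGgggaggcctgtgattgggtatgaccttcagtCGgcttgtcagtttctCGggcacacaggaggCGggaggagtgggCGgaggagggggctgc
Col3a1 (chr1:45311288-45311537, plus strand): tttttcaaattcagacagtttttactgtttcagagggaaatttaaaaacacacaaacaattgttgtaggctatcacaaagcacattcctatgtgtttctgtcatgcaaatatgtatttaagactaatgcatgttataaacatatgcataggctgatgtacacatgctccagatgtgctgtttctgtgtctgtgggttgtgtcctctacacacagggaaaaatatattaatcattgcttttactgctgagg
These stretches held 8 CG dinucleotides in Col6a5, 28 in Col5a1 and 17 in Col5a3, all under a peak. The count was 7 in Col11a1 and 0 in Col3a1, neither of which had a peak. Of 13560 coding-gene promoters, 63.5% held at least 8 CG, 66.4% at least 7 and 10.6% at least 28. The CG count of Col11a1 thus lay beside that of Col6a5, so the count alone did not separate these promoters.

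Starts of collagen genes carried a peak in 16 of 42 cases (38.1%). Over all coding genes the share was 24.2%. Collagen genes are long, with a median of 110.9 kb against 17.6 kb, and long genes had start peaks more often. At the rates of all coding genes in 4 length classes (under 50 kb, 50 to 100 kb, 100 to 200 kb, 200 kb and over), 13.1 collagen genes would have one. The strongest start peak was that of Col13a1, a membrane-spanning collagen of cell contacts, with a score of 169.15 and a midpoint 800 bp downstream of the start. That peak lay at chr10:61977900-61978716. Col18a1, a multiplexin whose C-terminal piece is endostatin, followed with 168.76 at chr10:77165410-77166813. The Col9a2 peak (chr4:121039351-121040362) scored 133.75 and the Col12a1 peak (chr9:79718357-79719400) 109.95, and both encode FACIT collagens. These 4 were the start peaks above a score of 100.

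The remaining start peaks scored between 52.37 and 97.79. Among fibrillar genes they were those of Col2a1, the main cartilage collagen (97.79), Col5a1 (64.2), Col24a1 (54.99) and Col5a3 (53.27). Among FACIT genes they were Col14a1 (91.68), Col19a1 (87.31) and Col9a3 (73.64). The short-chain network genes Col8a2 (89.48) and Col8a1 (52.37), the beaded filament gene Col6a5 (66.17), the multiplexin gene Col15a1 (57.33) and Col26a1 (72.52) completed the list. The peaks of Col5a1 and Col15a1 also lay within 1 kb of the start of a non-coding gene, 2810430I11Rik and Gm12426. The median score of collagen start peaks was 80.5, against 69.8 for start peaks of all coding genes. Their midpoints lay downstream of the start in 12 of 16 cases (75%), close to the 78.3% of all coding genes.

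No start peak was found at the type I and type III genes Col1a1, Col1a2 and Col3a1, the most abundant fibril collagens of connective tissue. None was found at the 4 autosomal type IV genes of the basement membrane either. These form 2 head-to-head pairs. The starts of Col4a1 and Col4a2 lie 21 bp apart and those of Col4a3 and Col4a4 72 bp apart. The RefSeq windows of Col4a1 and Col4a2, from 250 bases before to 50 after the start, held 37 and 33 CG dinucleotides, which places both in the richest of 5 classes that hold equal numbers of coding promoters. In that class 46.5% of all genes had a start peak, and 3 of 5 collagen genes did.

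Windows of this kind matched 31 of the 42 genes. The 11 with a start peak had a median of 16 CG dinucleotides (range 6 to 34), and the 20 without one had 7.5 (range 0 to 37). The first range lay within the second. All 6 collagen genes in the class poorest in CG lacked a start peak, where the share over all genes was 5.53%. Of the 10 in the next class 5 had one, against 17.1% of all genes. Summed over the 5 classes, the rates of all genes would give 7.45 start peaks to these 31 genes, and 11 were found.

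**Figure D1:**
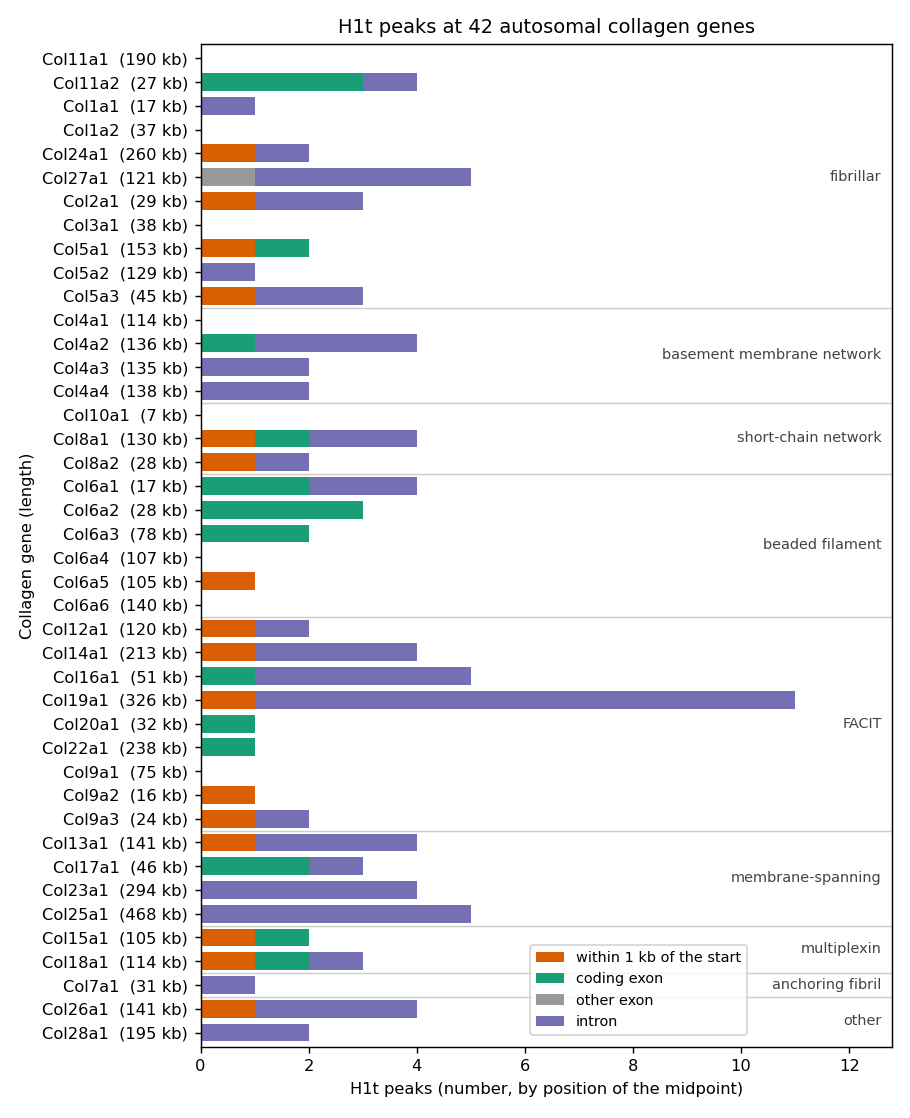
Number of H1t peaks (horizontal axis) at each of the 42 collagen genes (vertical axis, with gene length in kb), coloured by the position of the midpoint and grouped by collagen class. Col19a1 stands out with 11 peaks, and 8 genes have none.

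Coding exons held 20 peaks in 13 of 42 collagen genes (31%, against 14.1% of all coding genes). The share over all genes ran from 12.9% under 50 kb to 19.2% at 100 to 200 kb, and the rates by length class would give 7.0 genes. Collagen genes also have a median of 47 coding exons, against 6 over all coding genes. Among the 222 coding genes with 40 to 59 coding exons 32.4% had a coding-exon peak, and 5 of the 16 collagen genes in that range did. With 60 or more the share was 34.3%, and 4 of 10 collagen genes had one. Per Mb of coding sequence outside the start windows, collagen genes had 107 peaks and all coding genes 126, a ratio of 0.851. The 95% exact binomial interval of the collagen peak count puts this ratio between 0.520 and 1.31. This interval covers counting error only and takes peaks as independent, although several lie in the same gene. With any overlap of at least 1 bp in place of the midpoint the ratio was 1.002.

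The beaded filament genes of type VI collagen, which forms fine filaments around cells, held 7 of the 20 coding peaks. Col6a2 had 3, with scores of 91.68, 54.44 and 53.91 in its coding exons 2, 25 and 27. Col6a3 had 2, with scores of 103.51 in exon 7 and 81.83 in exon 39. Col6a1 also had 2, with scores of 82.73 in its last coding exon and 50.11 in exon 13. All of these but the exon 13 peak lay in exons of 200 bp and over. Over all genes such exons had 183 peaks per Mb, against 46.0 in exons under 100 bp. The share of type VI genes in collagen coding sequence is not given here. Of the 7 peaks, 6 (85.7%) lay outside the glycine repeat, close to the 81.5% of the coding sequence of these 3 genes that lies outside it. The other 3 genes of the type, Col6a4, Col6a5 and Col6a6, had 0 coding-exon peaks.

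Outside type VI, Col11a2, a fibrillar collagen of cartilage, had 3 coding peaks with scores between 50.93 and 63.59. Col17a1, a hemidesmosome collagen of skin, had 2, and its peak of 107.04 was the strongest in any collagen coding exon. Single coding peaks were those of Col5a1 (85.09), Col4a2 (82.69), Col22a1 (68.95), Col18a1 (63.42), Col15a1 (57.31), Col8a1 (52.53), Col20a1 (51.38) and Col16a1 (50.19). The median score was 61.4, against 65.6 for coding peaks of all coding genes. With the coding sequence cut into 5 equal parts, 7 of the 20 peaks lay in the last part and 3 or 4 in each of the others. The shares by part over all coding genes are not given here. Peaks within 1 kb of the start were not counted as coding peaks, which can lower the count in the first part.

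The coding sequence at the midpoints of the 3 strongest of these peaks, and of the strongest in Col11a2, is shown for its content of CG, again in capitals. Exons are counted from the first coding exon of the transcript with the longest coding sequence, and exons of over 300 bases are shown by 300 bases about the midpoint.
Col17a1, coding exon 29 (chr19:47661097-47661132, minus strand): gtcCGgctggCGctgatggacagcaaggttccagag
Col6a3, coding exon 7 (chr1:90810319-90810618, minus strand): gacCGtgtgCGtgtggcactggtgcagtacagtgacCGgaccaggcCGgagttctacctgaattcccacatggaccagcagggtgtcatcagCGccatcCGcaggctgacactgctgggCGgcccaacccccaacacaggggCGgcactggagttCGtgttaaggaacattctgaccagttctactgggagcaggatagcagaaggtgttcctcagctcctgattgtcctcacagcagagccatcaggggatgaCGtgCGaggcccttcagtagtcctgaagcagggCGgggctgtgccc
Col6a2, coding exon 2 (chr10:76614441-76614740, minus strand): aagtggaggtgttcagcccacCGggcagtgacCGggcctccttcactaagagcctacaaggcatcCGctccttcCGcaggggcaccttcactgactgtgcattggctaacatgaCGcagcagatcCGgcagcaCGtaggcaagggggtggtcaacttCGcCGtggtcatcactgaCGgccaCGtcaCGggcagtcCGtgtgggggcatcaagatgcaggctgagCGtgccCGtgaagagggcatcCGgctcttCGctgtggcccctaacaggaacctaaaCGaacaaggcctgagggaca
Col11a2, coding exon 63 (chr17:34064024-34064291, plus strand): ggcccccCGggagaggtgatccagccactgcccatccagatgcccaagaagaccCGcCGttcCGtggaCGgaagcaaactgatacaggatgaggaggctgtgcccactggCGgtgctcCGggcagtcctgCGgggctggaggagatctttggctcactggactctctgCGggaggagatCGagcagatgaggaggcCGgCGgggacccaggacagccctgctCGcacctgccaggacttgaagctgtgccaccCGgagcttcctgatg
Their GC contents were 63.9% in Col17a1, 60.7% in Col6a3, 61.3% in Col6a2 and 65.3% in Col11a2. All 20 exons that held a coding peak midpoint had a GC content between 55.85% and 70.83%, with a median of 60.6%. The Col17a1 exon is 36 bp long inside a peak of 778 bp, so most of that peak covers intron.

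Collagen coding sequence is rich in G and C, with a median per gene of 59.6% against 52.2% over all coding genes. Coding-exon peaks of all genes followed exon GC content steeply. In the class of highest GC (63.3% and above) all coding genes had 675 peaks per Mb, and collagen exons had 180 (8 peaks in 44483 bp). In the class from 60.98% to 63.33% the values were 563 and 89.0 (2 peaks). Between 56.93% and 58.11%, collagen exons had 279 peaks per Mb and all genes 198. With the rates of all coding genes in 20 classes of exon GC content, collagen exons would hold 58.8 peaks, against the 20 found (ratio 0.340, interval 0.208 to 0.525 for counting error of the peaks). The difference lay in the 3 classes of highest GC content, where 11 peaks were found and the rates would give 5.04, 12.7 and 30.0.

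**Figure D2:**
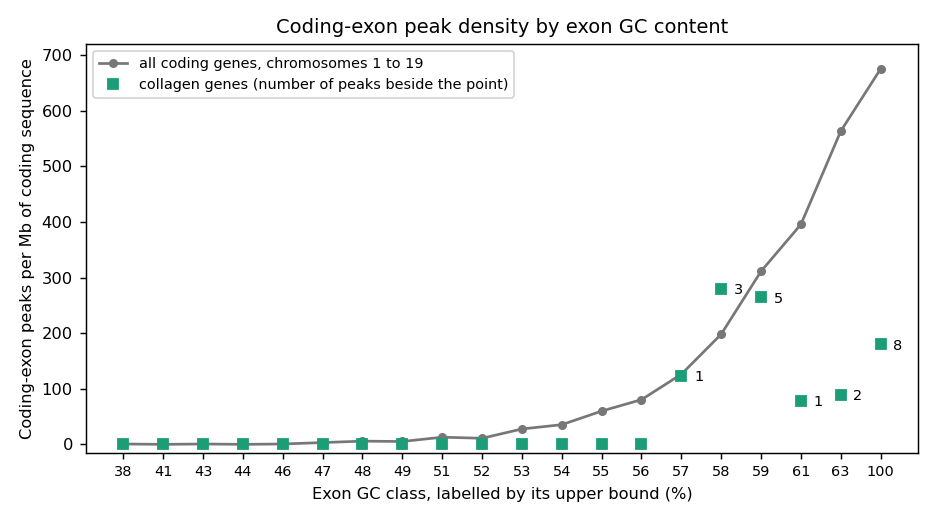
Coding-exon peaks per Mb of coding sequence (vertical axis) in 20 exon GC classes of equal coding length (horizontal axis), for all coding genes (line) and collagen genes (squares, with the number of peaks). The line rises to 675 in the last class, where the square is at 180.

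Exon length moved with this result. Of the collagen coding exons, 464 of 1906 (24.3%) were exactly 54 bp long, the size that encodes 6 glycine triplets, against 0.685% of all coding exons. Exons under 100 bp made up 38.98% of collagen coding sequence and 12.57% of that of all genes. In such exons collagen genes had 54.8 peaks per Mb and all genes 46.0. In exons from 100 bp to under 200 bp the order was the other way, with 68.0 in collagen genes (4 peaks) and 85.6 in all genes. In exons of 200 bp and over the values were 217 and 183, and these exons held 12 of the 20 peaks. With rates by exon length alone the number given was 18.5, close to the 20 found. With classes of GC content and length together it was 40.8, a ratio of 0.491. Exon length classes were chosen after the GC result was seen, and GC content of the introns beside these exons was not computed.

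The glycine repeat itself was read from the codons, as at least 6 codon triplets in a row that each begin with a glycine codon. It made up 47.0% of collagen coding sequence, with a GC content of 63.1% against 53.2% in the rest. It held 7 of the 20 coding peaks, or 78.5 per Mb, while the rest of the coding sequence held 13, or 129 per Mb. The repeat was thus richer in G and C and lower in peak density than the rest, on few peaks in each. Between exons the order was mixed. All 20 peaks lay in the 6 exon classes of highest GC content, but among these classes the collagen density did not rise with GC content. From lower to higher GC it was 123, 279 and 264 peaks per Mb, then 78.4, 89.0 and 180. Between genes the count went the other way, as the 21 collagen genes of higher coding GC content held 13 coding peaks against 7 in the other 21. Spearman's rho of coding GC content with coding peaks over the collagen genes was 0.11. The repeat was examined after the exon result was seen, and its part in the result was not tested.

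Introns carried a peak in 26 of 42 collagen genes (61.9%, against 30.3% of all coding genes). The rates by length class would give 24.4. In number, however, the 63 intron peaks were fewer than the 93.9 that the intron densities of all genes would give in the same length classes. Collagen introns had 13.8 peaks per Mb and introns of all coding genes 21.0, a ratio of 0.659 (interval 0.506 to 0.842 for counting error). Without Col19a1, the gene with the most, the ratio was 0.596.

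The lower density was found in the long collagen genes. The 24 genes of 100 kb and over had 47 intron peaks where 83.1 were given (ratio 0.566), and 8 of them had none. Among the 18 genes under 100 kb, 16 were found where 10.8 were given (ratio 1.48). Most of these 16 peaks overlapped a coding exon and were placed in introns by their midpoint. The matching share over all genes under 100 kb is not given here. No interval was computed for these ratios by length. Under 50 kb the density was 35.6 per Mb against 21.5 in all coding genes, and from 100 to 200 kb it was 10.5 against 19.5. Median coding GC content moved with length, at 60.7% under 100 kb and 57.9% from 100 kb on, and its part in the result was not tested. Over the 42 genes, Spearman's rho with peaks per 100 kb of gene body was -0.44 for gene length and 0.58 for coding GC content. Over all coding genes these values were 0.21 and 0.36. They are descriptions across genes of 1 library, and genes are not independent replicates.

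**Figure D3:**
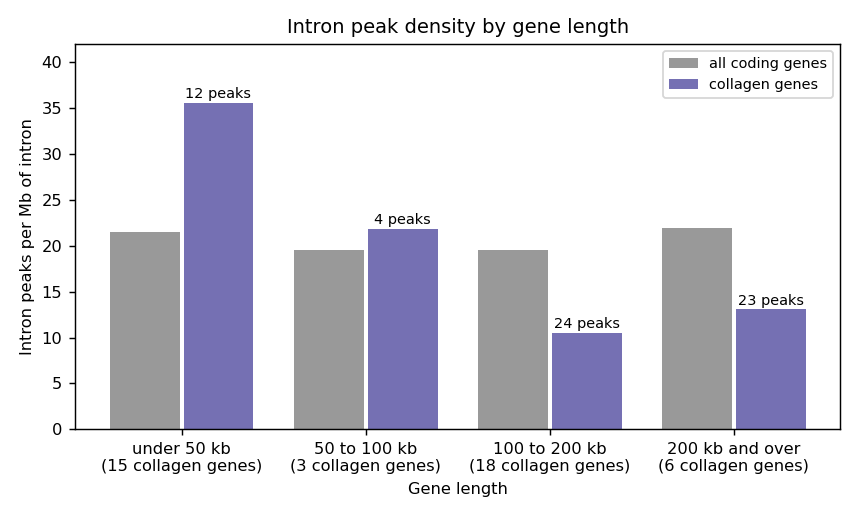
Intron peaks per Mb of intron (vertical axis) in 4 classes of gene length (horizontal axis), for all coding genes (grey bars) and collagen genes (purple bars, with the number of peaks). The purple bar is above the grey one under 50 kb (35.6 against 21.5) and below it from 100 to 200 kb (10.5 against 19.5). Peaks are placed by midpoint, and most of the 12 collagen peaks under 50 kb also overlap a coding exon.

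The 5 densest collagen genes were among the shorter ones, where few peaks already give a high value per 100 kb. Their values rest on 2 to 5 peaks each, and 3 of the 15 collagen genes under 50 kb had no peak. Col6a1 (17.4 kb) had 23.0 peaks per 100 kb, Col11a2 (27.2 kb) 14.7, Col6a2 (27.9 kb) 10.8, Col16a1 (51.4 kb) 9.72 and Col9a3 (24.4 kb) 8.20. Over all 42 genes the median was 2.10 peaks per 100 kb of gene body, against 0 over all coding genes. By length the collagen median was 6.56 against 0 under 50 kb and 2.56 against 1.75 from 50 to 100 kb. From 100 to 200 kb it was 1.24 against 1.80, and from 200 kb on 1.21 against 1.87. Intron peaks of the short collagen genes often reached into exons. Col16a1, a FACIT collagen, had 4 intron peaks with scores between 62.06 and 117.49, and each overlapped at least 1 coding exon. Over all collagen genes 16 of 63 intron peaks overlapped a coding exon (25.4%), against 10.5% in all coding genes. Col7a1, the anchoring fibril gene with 118 coding exons in 31.3 kb, had 1 peak, in an intron, which overlapped 3 coding exons and scored 65.97.

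Among the 5 longest genes, Col19a1 (325.6 kb) had 10 intron peaks, or 31.2 per Mb of intron. They lay in groups. Intron 17 held 4, with scores of 57.41, 62.57, 156.5 and 287.46 between 24340477 and 24344948 on chromosome 1. Intron 11 held another 4, of which 3 lay between 24496263 and 24499100 with scores of 84.91, 115.43 and 153.4. Col19a1 encodes a FACIT collagen found in muscle and brain. The longest collagen gene, Col25a1 (468.4 kb), a membrane-spanning collagen of neurons, had 5 intron peaks. One of them, at chr3:130140835-130141776, had the highest score of any collagen peak, 299.08, and lay in the processed pseudogene Gm9397, 9804 bp into the gene record and before the first exon of the transcript used here. Col23a1 (294.0 kb) had 4 intron peaks with scores from 51.22 to 136.55, Col24a1 (259.5 kb) had 1 of 108.65, and Col22a1 (238.4 kb) had none, its 1 peak being in a coding exon.

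Col1a1, the main chain of the type I fibril, had 1 intron peak of 52.82. High-scoring intron peaks lay also in Col28a1 (231.97, chr6:8054521-8056089), Col14a1 (217.48, chr15:55396163-55397624) and Col4a2 (158.46). The Col27a1 peak of 153.73 was the only one in an untranslated exon, 1819 bp downstream of the start. The median score of collagen intron peaks was 66.0, against 71.2 for intron peaks of all coding genes.

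**Figure D4:**
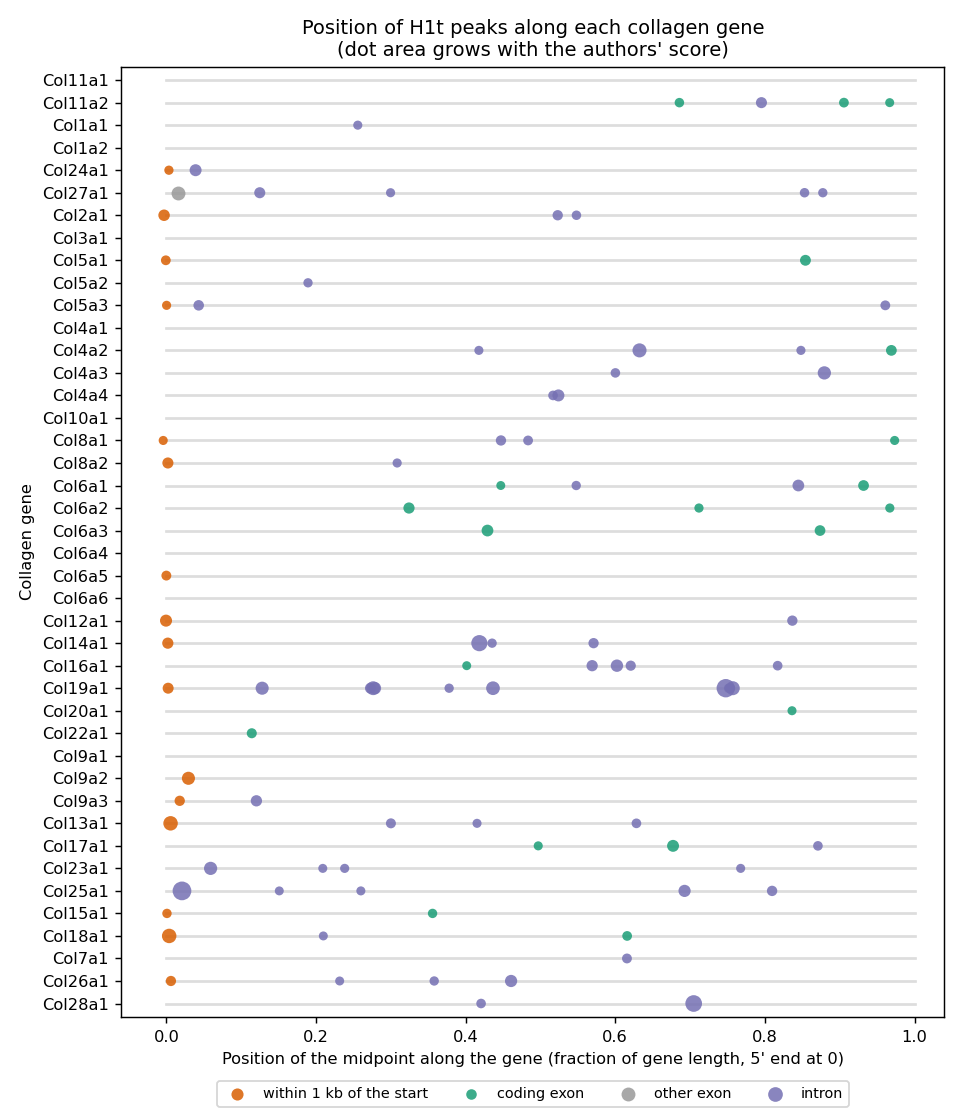
Position of every assigned peak (dots) along each collagen gene (vertical axis), as a fraction of gene length from the 5′ end (horizontal axis), with dot area growing with the score. Start peaks lie close to 0 in 16 genes, and the intron peaks of Col19a1 fall into groups.

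No peak midpoint lay within 8 of the 42 collagen genes (19%), against 51.2% of all coding genes and 12.2 genes at the rates by length class. They were Col11a1 (190.2 kb), Col6a6 (140.4 kb), Col4a1 (114.4 kb), Col6a4 (107.3 kb), Col9a1 (75.1 kb), Col3a1 (38.2 kb), Col1a2 (36.7 kb) and Col10a1 (7.11 kb). In the class from 100 to 200 kb 11.8% of all genes were empty, and 4 of the 18 collagen genes were. Of the 8, only Col4a1 had a coding GC content above the collagen median (60.4%). Collagen genes that lie side by side often differed in their number of peaks, and 0 peaks lay between the genes of any pair. The records of Col4a1 and Col4a2 overlap and those of Col4a4 and Col4a3 lie 71 bp apart, which left almost no room for one. No rate for other neighbouring genes is given here. Col9a1 had 0 peaks beside Col19a1 with 11, 9.2 kb away. Col4a1 had 0 and Col4a2 had 4. Col6a2 and Col6a1, which lie 85.2 kb apart in the same direction, had 3 and 4. Col4a4 and Col4a3 had 2 each. Col3a1 had 0 and Col5a2 had 1, and of the neighbours Col6a6, Col6a5 and Col6a4 only Col6a5 had one, at its start.

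By class, all 4 membrane-spanning genes and both multiplexin genes had at least 1 peak in the gene body, as did Col7a1, Col26a1 and Col28a1. All of these but Col7a1 and Col17a1 are longer than 100 kb. Over all coding genes 51.2% had no such peak. By length it was 61.3% under 50 kb, 11.8% from 100 to 200 kb and 1.89% from 200 kb on. The FACIT genes had start peaks in 5 of 9, the fibrillar genes in 4 of 11, the beaded filament genes in 1 of 6 and the basement membrane genes in 0 of 4, beside 24.2% of all coding genes. The rates by length class would give 2.90 in the FACIT, 3.11 in the fibrillar, 1.80 in the beaded filament and 1.42 in the basement membrane genes. Over the summed gene length, the classes with more than 1 gene ran from 1.53 peaks per 100 kb in the basement membrane network to 3.03 in the short-chain network. All 20722 coding genes together had 2.80 and the 42 collagen genes 1.98. With so few genes per class these values are a description only.

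Collagen chains are modified, folded, cut, cross-linked and bound by a known set of proteins, and a list of 48 such genes was counted in the same way. A start peak was found in 19 (39.6%, against 24.2% of all coding genes), where the rates by length class would give 12.3. A coding-exon peak was found in 12 (25.0%, against 14.1%), where 7.03 would be given. An intron peak was found in 26 (54.2%, against 30.3%), where 17.2 would be given. No peak lay within 12 (25.0%, against 51.2%), where 22.4 would be given. The counts with a start, coding-exon or intron peak were each above the number given, and the count without a peak was below it. Their median length was 26.6 kb and their median density 2.51 peaks per 100 kb, against 17.6 kb and 0 over all coding genes. Both a start and a coding-exon peak were found in 6. These were Plod3, a lysyl hydroxylase (start score 106.28, coding score 102.64), Crtap, a partner of prolyl 3-hydroxylase (103.53 and 80.63), and Adamts2, the procollagen N-proteinase (109.56 and 71.44). The others were Tll2, a tolloid-like protease (194.73 and 69.85), the collagen receptor Ddr1 (67.8 and 91.13) and the endocytic receptor Mrc2 (65.34 and 97.46). Plod3 (9.63 kb) had 41.5 peaks per 100 kb, from 4 peaks, which was above every collagen gene.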

How the data were processed

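H1t-bound DNA was sequenced in 1 library. The submitters' processing notes name Bowtie 1.1.2 and the build mm10. The deposited list holds a position, a name and the authors' score per peak, and the names point to MACS, whose settings the sources used here do not give. Read depth is unknown.

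For each coding gene of GENCODE M21, a peak was placed by its midpoint at the start (within 1 kb of the gene record's 5′ end), in coding exons, in other exons or in introns, in that order. Exons came from the transcript with the longest coding sequence. Densities of coding-exon and intron peaks per Mb leave out the start window, except that the glycine repeat and the rest were taken over their full length. Peaks per 100 kb of gene body include start peaks within the body and use the full gene length. GC content came from annotated transcript sequences and promoters from RefSeq (GRCm38.p6). The number given by a rate is the rate of all coding genes in a class times the collagen genes' count or length there, summed over classes. Intervals are 95% exact binomial intervals of the peak count. The coding-exon density ratio was tested on peaks simulated in coding exons at known rates, which did not depend on GC content. Start and intron counts were not tested in this way. The members and lists were chosen with earlier results of these data known.

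Named by rule were genes with a start peak or no peak, the 12 with most coding-exon peaks (the 13th, which ties, is given too), the 5 densest, the 5 longest, the best score of each position, neighbouring genes, and listed pathway genes with start and coding peaks. Other names were chosen after their values were seen. Versions were matplotlib 3.10.9, scipy 1.17.1, pandas 2.3.3 and numpy 2.4.6 under Python 3.11.15.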

Additional observations from a re-analysis of the deposited data

How the results depend on the processing

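No paired analysis was possible because the series holds 1 H1t library and the result comes from no test. Of 45 values under 11 other settings for 8 results, 41 stayed close to the reported ones (counts and the median within 1.5 times, ratios within their 95% interval). Of these 41, 8 came from leaving out peaks that score 500 or more. No collagen peak scored above 299.08, so the counts and the median could not move there. Under all coding transcripts, the count of genes without a peak and the median were also fixed, since the gene body stayed the same. With only peaks at or above the median score, 8 genes kept a start peak in place of 16 and 6 a coding-exon peak in place of 13. There 15 genes had no peak in place of 8, and the median density was 0.708 in place of 2.10 peaks per 100 kb, since that setting keeps fewer peaks. Start windows of 500 bp and 2 kb gave 11 and 17 genes with a start peak in place of 16. The ratio of coding-exon density ran from 0.788 with all coding transcripts to 1.002 with overlaps of at least 1 bp. With such overlaps 19 genes had a coding-exon peak and 18 an intron peak. For the counts of genes under these other settings, the shares over all coding genes are not given here. Whether the differences from all coding genes hold under them was therefore not examined. The ratio to the number given by exon GC content ran from 0.299 with the higher-scoring peaks to 0.491 with classes of GC content and exon length, the latter added after the data were seen. The ratio of intron density ran from 0.556 to 0.683. Counting by exon GC content with all coding transcripts was not run. Many collagen exons are far shorter than a peak, so the midpoint places peaks coarsely. Read depth was unknown and the input was not analysed, so weak peaks could not be judged.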

Other observations

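The type IV genes on chromosome X, which lie outside the rule, were counted after the data were seen. Col4a5 (213.9 kb) had 3 peaks in its body, with scores from 52.42 to 121.65, and Col4a6 (308.7 kb) had 1 with a score of 87.74. Neither had a start peak, as with the 4 autosomal type IV genes.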
